A study of Mus musculus with 4 samples.

Results

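The genes described here are the glycolytic enzymes and transporters and the hypoxia response genes of macrophages sorted from mouse livers. They were chosen by symbol from a fixed list of 31 genes, with the probe set of the highest 4-array mean taken for each gene, out of 22180 genes on the array. Of the 31 genes, 27 had a probe set carrying their symbol alone, and 19 of those reached a log2 level of 6 in at least 1 of the 4 arrays, a floor that 5306 of all genes reached. These 19 were 11 of the 19 glycolysis genes and 8 of the 12 hypoxia response genes. Gpi1, Eno1, Aldoa and Bnip3l had no such probe set and were not analysed here.

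The livers had been made ischaemic and then reperfused, and their macrophages were collected 48 h later. The 10 wild-type (WT) animals and the 10 animals under the label mPGES-1 knockout (KO) were C57/BL6 mice. mPGES-1, encoded by Ptges, is the inducible enzyme that makes prostaglandin E2. The sorted cells were split by Ly6C, a surface protein of recently recruited inflammatory monocytes, and each of the 4 groups (WT Ly6C-hi, WT Ly6C-low, KO Ly6C-hi and KO Ly6C-low) was hybridised to 1 Mouse Gene 2.0 ST array. All 4 groups had reperfusion in common and no array of a liver without it was analysed here. The labels do not give age, sex, the tissue range of the deletion or the number of mice pooled for an array. With 1 array per group, a difference between 2 arrays has neither a replicate check nor a p-value, and precision is limited by how few arrays there are.

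Glycolysis splits glucose into pyruvate in the cytosol and yields ATP without oxygen, and lactate leaves the cell through monocarboxylate transporters. Under low oxygen, prolyl hydroxylases stop marking the alpha subunits of hypoxia-inducible factor (HIF) for destruction, and HIF then switches on glucose transporters, most glycolytic enzymes, angiogenic factors and its own hydroxylases. In monocytes, macrophages and neutrophils the same programme is also engaged by inflammatory signals, and inflammatory macrophages and neutrophils rely strongly on glycolysis. Many glycolysis genes listed here are HIF targets as well, so the split into glycolysis and HIF response follows function and not regulation.

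HIF binds DNA at a short core, ACGTG, and less often GCGTG. The 250 bases before the annotated start of 5 genes are given here, 4 that were called higher in the Ly6C-hi fraction of WT livers and Adm, which was not called there. They were taken from RefSeq (GRCm38.p6), they run 5′ to 3′ on the strand of the gene, and capitals mark ACGTG or its reverse complement CACGT. The windows are chr4:119108495-119108744 (plus strand) for Slc2a1, chr11:120948817-120949066 (plus) for Slc16a3, chr12:54203875-54204124 (minus) for Egln3, chr14:45318573-45318822 (minus) for Ero1a and chr7:110627407-110627656 (plus) for Adm.
Slc2a1: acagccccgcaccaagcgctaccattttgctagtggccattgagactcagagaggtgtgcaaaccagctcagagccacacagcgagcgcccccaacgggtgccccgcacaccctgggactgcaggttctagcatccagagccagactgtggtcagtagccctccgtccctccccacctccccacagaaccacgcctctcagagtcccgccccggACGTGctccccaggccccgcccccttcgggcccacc
Slc16a3: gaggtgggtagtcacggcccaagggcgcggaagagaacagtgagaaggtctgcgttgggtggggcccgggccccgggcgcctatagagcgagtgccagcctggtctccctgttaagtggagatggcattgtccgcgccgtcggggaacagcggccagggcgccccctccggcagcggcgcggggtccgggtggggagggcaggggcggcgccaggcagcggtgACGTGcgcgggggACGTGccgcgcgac
Egln3: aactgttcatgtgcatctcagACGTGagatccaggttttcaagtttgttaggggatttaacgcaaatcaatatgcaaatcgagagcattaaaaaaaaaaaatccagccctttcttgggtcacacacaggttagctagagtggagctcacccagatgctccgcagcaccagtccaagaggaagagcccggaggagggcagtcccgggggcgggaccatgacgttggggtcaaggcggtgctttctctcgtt
Ero1a: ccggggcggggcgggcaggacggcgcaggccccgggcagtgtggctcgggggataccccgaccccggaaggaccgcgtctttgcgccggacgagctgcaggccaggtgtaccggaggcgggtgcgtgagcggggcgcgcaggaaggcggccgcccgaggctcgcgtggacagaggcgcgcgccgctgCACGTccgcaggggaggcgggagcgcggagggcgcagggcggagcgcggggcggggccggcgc
Adm: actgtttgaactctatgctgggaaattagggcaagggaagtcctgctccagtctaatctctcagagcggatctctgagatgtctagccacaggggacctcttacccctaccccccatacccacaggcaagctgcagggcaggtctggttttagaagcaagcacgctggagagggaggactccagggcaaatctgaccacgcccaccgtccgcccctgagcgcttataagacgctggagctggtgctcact
The Slc16a3 window holds ACGTG 2 times, beginning 27 and 14 bases before the start. Slc2a1 has it at 36 bases, Ero1a has CACGT at 63 bases and Egln3 has ACGTG at 229 bases. Adm holds no ACGTG on either strand and 2 matches of GCGTG or its reverse complement CACGC. Of the other genes called higher there with a window, Pfkfb3, Vegfa and Hilpda hold ACGTG or CACGT in at least 1 window and Pfkp does not. For Vegfa the match lay only in the window of a start further downstream (chr17:46025164-46025413), and chr17:46032378-46032627 held none. Among genes at the floor not called there, Hk3, Pgk1, Pgam1, Pkm, Hif1a and P4ha1 hold it, and Tpi1, Gapdh and Adm do not. For Hilpda and Pkm too, not every annotated window held it. Any part of the core in the differences was not tested.

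Of the 19 genes at the floor, 17 had a window in that table (not Slc2a3 and Ndrg1), and 13 of them (76.5%) held ACGTG or CACGT in at least 1 annotated start's window. The same was true of 25.7% of the 4223 genes at the floor with a window, and of 18.5% of all 27025 genes in the table. GCGTG or CACGC was present for 10 of the 17 (58.8%), against 48.9% of genes at the floor and 30.9% of all. The palindrome CACGTG, bound by other factors, holds both ACGTG and CACGT. Genes with several starts have more windows and so more room for a match. These are matches of letters in a window, and many of the genes are on the list because they are known HIF targets.

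Several facts about the arrays bear on every value that follows. Ptges itself did not read lower under the KO label (5.65 for WT and 6.32 for KO in Ly6C-hi, 5.69 and 6.20 for the Ly6C-low fraction). The sources used here do not say whether its probes lie in the deleted part, so each genotype difference rests on the label. The array labelled KO Ly6C-hi stood apart, with 3066 genes at the floor against 3594 to 4171 in the others, and it enters every comparison except Ly6C-hi against Ly6C-low in WT and KO label against WT in Ly6C-low. The median of all genes differed by 0.30 on the log2 scale between the fractions of WT livers and by -0.37 under the KO label. Between the KO label and WT it differed by -0.53 in Ly6C-hi and by 0.15 in Ly6C-low. Differences are therefore given as deposited and, where marked as relative, after subtracting that median. Chemosensory receptor genes, which macrophages are not known to use, nearly all stayed under 5.34 in the Ly6C-hi and 5.99 in the Ly6C-low cells of WT livers, and under 6.09 and 5.54 for the KO label. These levels were taken as background. Where the dimmer array of a pair was under its background level, the fold is given as "at least" the fold down to that level, a rule added after the data were seen. General macrophage genes were present in all arrays, with the lysozyme gene Lyz2 at 9.11 to 9.36 and the macrophage surface receptor gene Adgre1 at 7.77 to 8.53. Markers of other cells were present too. The mean level of 14 neutrophil markers at the floor was 9.14 in the Ly6C-hi and 5.64 in the Ly6C-low cells of WT livers, with 7.09 and 5.19 for the KO label. Of the list's 18 genes, Camp, Ltf, Elane and Mpo stayed under the floor in all 4 arrays, while other granule genes, such as Mmp9 (10.15), Mmp8 (9.11), Lcn2 (8.68) and Ngp (8.14), were bright in WT Ly6C-hi. The mean of 17 sinusoidal endothelial markers was 5.08, 7.94, 4.55 and 9.34 in the same order, and that of 9 inflammatory monocyte markers was 8.17, 6.58, 8.47 and 6.49. The 9 Kupffer cell markers averaged 6.39, 7.71, 5.48 and 7.19 and 10 hepatocyte markers 7.28, 8.07, 6.93 and 7.91.

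In WT livers, the glucose transporter genes Slc2a1 and Slc2a3, the phosphofructokinase step genes Pfkp and Pfkfb3 and the lactate exporter gene Slc16a3 read higher in Ly6C-hi than in Ly6C-low cells. So did the HIF response genes Egln3, Vegfa, Hilpda and Ero1a, but not Hif1a, P4ha1 or Ndrg1, and the enzymes of lower glycolysis differed by less than 2-fold. A gene was called when it differed at least 2-fold with the brighter array at the floor. Of 11 glycolysis genes 5 were higher in Ly6C-hi and 0 lower, and of 7 HIF response genes with a value in this comparison 4 were higher and 0 lower. Of all 4762 genes, 20.3% were called higher and 6.57% lower. Relative to the median gene the same counts, 5 of 11 and 4 of 7, stood against 13.5% called higher and 10.4% lower. Counted only down to the background level, 4 of 11 and 4 of 7 were higher (Pfkfb3 was not), against 13.3% of all genes. The median difference was 1.0 for glycolysis and 1.56 for HIF response genes, against 0.30 for all genes. These counts are fixed in part by the floor and are no support for a difference of the lists: Hk3, Pfkfb3, Egln3 and Adm reached it in 1 array only, and Slc2a3, Slc16a3, P4ha1 and Ero1a in 2 arrays. In cell mixtures such as these, fewer cells of a type and less RNA per cell cannot be told apart.

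**Figure D1:**
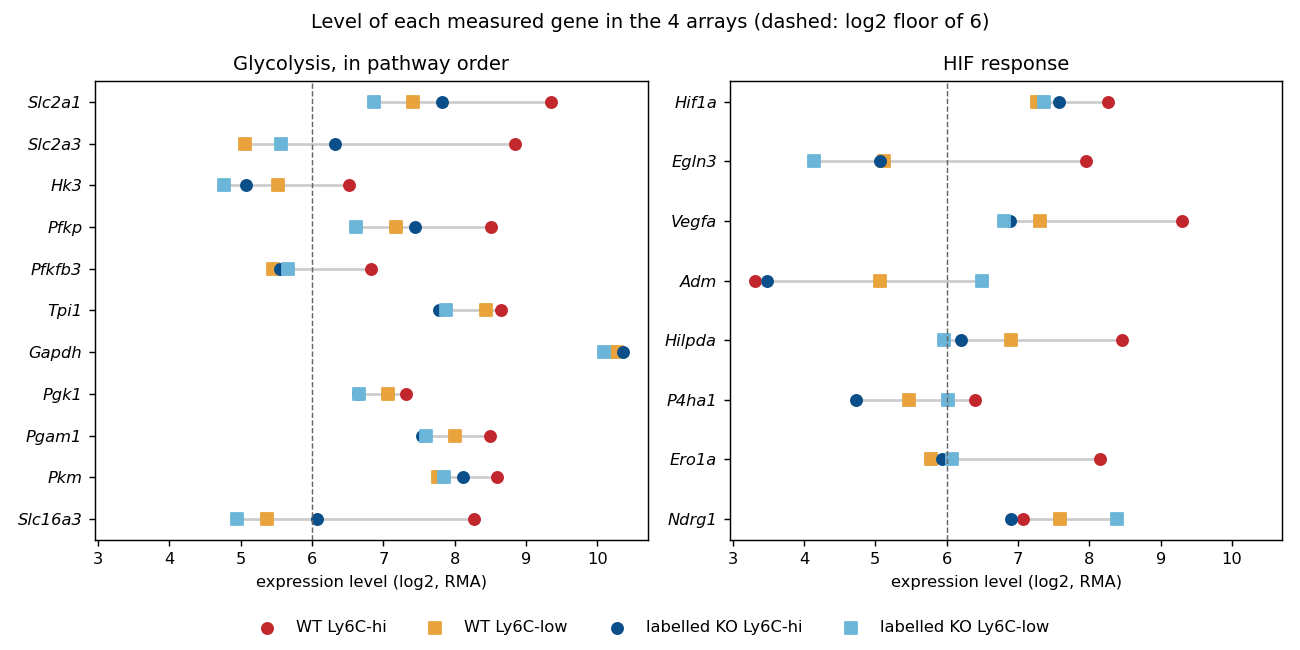
Level (log2, RMA) of the 11 glycolysis genes and 8 HIF response genes at the floor, 1 point per array, with grey lines from the lowest to the highest array. WT Ly6C-hi is the highest array for 16 of the 19 genes, against 46.8% of all genes at the floor. Adm and Ndrg1 are highest in labelled KO Ly6C-low and Gapdh in labelled KO Ly6C-hi. Hk3, Pfkfb3, Egln3 and Adm reached the floor in 1 array only, which fixed their highest array.

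Glucose enters these cells through facilitative transporters. Slc2a3, which encodes the high-affinity transporter GLUT3 of leukocytes and neurons, read 8.85 in the Ly6C-hi and 5.06 in the Ly6C-low cells of WT livers, with 6.32 and 5.56 for the KO label. Only WT Ly6C-hi stood far above the floor. The fractions of WT livers differed at least 7.27-fold, with a measured log2 difference of 3.78 (3.48 relative to the median). Under the KO label they differed 1.69-fold (0.76, or 1.13 relative). Slc2a1, the widely expressed transporter GLUT1, read 9.34, 7.42, 7.82 and 6.87 in the same order of arrays. Ly6C-hi was the higher fraction under both labels, by 3.80-fold in WT and 1.93-fold under the KO label.

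Hexokinases trap glucose in the cell. Hk3, the hexokinase of myeloid cells, read 6.53 in WT Ly6C-hi and 4.77 to 5.53 in the other arrays. Its measured WT difference rounds to 1.0 and was not called. The WT Ly6C-low reading was under background, and the fold down to that level was at least 1.45. Hk1 (3.87 to 4.55) and Hk2 (4.48 to 5.70), the housekeeping and the inducible form, stayed under the floor in all 4 arrays. Phosphofructokinase makes the committing step. Its platelet-type subunit gene Pfkp read 8.51 in the Ly6C-hi and 7.17 in the Ly6C-low cells of WT livers, with 7.45 and 6.62 for the KO label, a 2.52-fold difference between WT fractions and 1.77-fold under the KO label. Pfkfb3, whose product makes the activator fructose bisphosphate of that enzyme, read 6.83 in WT Ly6C-hi and 5.46 to 5.67 in the other 3 arrays. Pfkl, the liver-type subunit, missed the floor narrowly at 5.99 in WT Ly6C-hi, while P4ha1, at 6.40, was the closest gene inside it. Pfkfb4 stayed at 4.12 to 5.36.

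Enzymes of lower glycolysis differed less between arrays. None of the 5 measured was called in any of the 4 pairwise comparisons, with or without subtraction of the median. Triose phosphate isomerase, Tpi1, read 8.65 in the Ly6C-hi and 8.44 in the Ly6C-low cells of WT livers, with 7.78 and 7.88 for the KO label. Gapdh, glyceraldehyde phosphate dehydrogenase, lay between 10.10 and 10.35. Phosphoglycerate kinase, Pgk1, read 7.32, 7.06, 6.64 and 6.66 in the order of arrays used for Tpi1. Phosphoglycerate mutase, Pgam1, read 8.49, 8.0, 7.54 and 7.60. For both genes the WT arrays were the higher pair. Pkm, the pyruvate kinase of leukocytes, read 8.60, 7.76, 8.12 and 7.84, and had the largest WT fraction difference of the 5 enzymes (0.83). The median of the 5 differences between WT fractions was 0.26, next to 0.30 for all genes. Gapdh, Tpi1, Pgk1 and Pgam1 have processed pseudogenes of near-identical sequence, so their probe sets may hold signal of more than 1 locus.

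Pyruvate becomes lactate through lactate dehydrogenase and leaves through Slc16a3, the proton-coupled exporter MCT4 of glycolytic cells. Slc16a3 read 8.27 in the Ly6C-hi and 5.37 in the Ly6C-low cells of WT livers, with 6.07 and 4.95 for the KO label. In WT it was at least 4.87-fold higher in Ly6C-hi. Under the KO label the measured difference, 1.12, passed 2-fold, but both readings were under the background level of their arrays, so no fold is given. Its promoter window, shown above, holds the ACGTG core 2 times, and any part of that core in these differences was not tested. The probe set of Ldha, the dehydrogenase subunit that favours lactate, read 3.89 to 4.80 and stayed under the floor.

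Among the HIF machinery on the list, Hif1a, the inducible alpha subunit, read 8.26 in the Ly6C-hi and 7.27 in the Ly6C-low cells of WT livers, with 7.58 and 7.36 for the KO label. Its WT fraction difference rounds to 1.0 and was not called. HIF-1 alpha is regulated mainly at the level of protein, which arrays do not measure. Egln3, a prolyl hydroxylase that HIF itself induces, read 7.96 in the Ly6C-hi and 5.12 in the Ly6C-low cells of WT livers, with 5.06 and 4.14 for the KO label. Only 1 of the 4 arrays was at the floor, and that array was at least 3.93-fold above the other WT fraction. Egln1, the main oxygen sensor, stayed at 4.19 to 4.76.

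The list holds a pair of genes for secreted factors. Vegfa, the vascular endothelial growth factor, read 9.30 in the Ly6C-hi and 7.31 in the Ly6C-low cells of WT livers, with 6.89 and 6.80 for the KO label. It was 3.96-fold higher in Ly6C-hi of WT and 1.06-fold higher under the KO label. Adm, the precursor of the vasodilator adrenomedullin, read 3.31, 5.06, 3.48 and 6.50 in that order. Both Ly6C-hi arrays were the lower ones, and the measured difference under the KO label was -3.02. There the brighter array passed the floor, and the fold down to the background level was at least 1.32. The WT arrays were both under the floor for Adm, so no call was made there.

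The remaining HIF targets act in lipid storage, protein folding and matrix synthesis. Hilpda, an inhibitor of triglyceride breakdown on lipid droplets, read 8.46 in the Ly6C-hi and 6.91 in the Ly6C-low cells of WT livers, with 6.20 and 5.97 for the KO label. The WT fractions differed 2.94-fold. Ero1l, an oxidase for disulphide bonds in the endoplasmic reticulum now named Ero1a, read 8.15, 5.78, 5.94 and 6.07. WT Ly6C-hi alone was high, at least 4.48-fold above WT Ly6C-low. P4ha1, the collagen prolyl hydroxylase subunit, read 6.40, 5.47, 4.73 and 6.02, the higher fraction being Ly6C-hi in WT and Ly6C-low under the KO label. The dimmer reading was under background in both pairs. Down to that level the WT fractions differed at least 1.34-fold, and under the KO label no difference was left. Ndrg1, a stress-responsive gene of differentiation, read 7.06, 7.58, 6.90 and 8.39, with Ly6C-low above Ly6C-hi under both labels. The mitochondrial genes Bnip3 (4.62 to 5.70), a mitophagy receptor, and Pdk1 (4.42 to 4.80), which blocks pyruvate entry into mitochondrial oxidation, stayed under the floor.

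**Figure D2:**
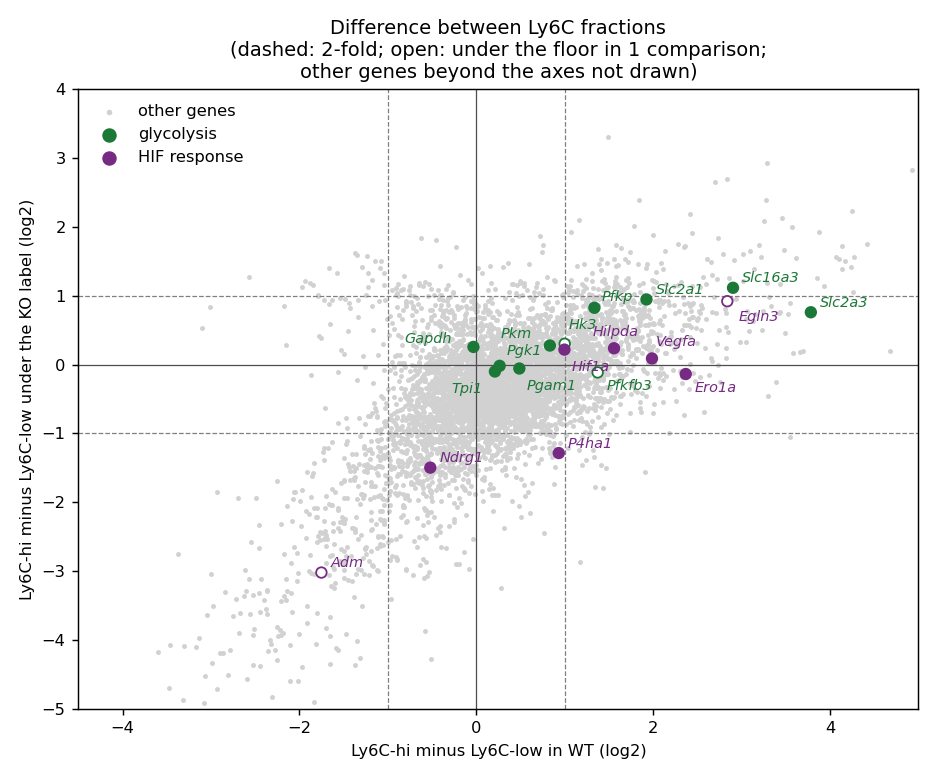
Log2 difference between Ly6C-hi and Ly6C-low in WT (x axis) and under the KO label (y axis) for the 19 genes, over the other genes at the floor in grey; open points were under the floor in 1 of the comparisons. Slc2a3 lies at 3.78 and 0.76, Slc16a3 at 2.90 and 1.12, Ero1a at 2.37 and -0.14 and Adm at -1.75 and -3.02.

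Under the KO label the same contrast of fractions gave fewer high values in Ly6C-hi. Of 9 glycolysis genes with a value, 1 (Slc16a3) was called higher and 0 lower; of 7 HIF response genes, 0 were higher and 3 (Adm, P4ha1 and Ndrg1) lower. Of all 4541 genes 4.47% were called higher and 20.7% lower. Of the arrays compared here, Adm and P4ha1 reached the floor in Ly6C-low alone and Slc16a3 in Ly6C-hi alone. The floor thus admitted these genes through the higher array, and their calls are no support for a difference. Relative to the median gene, 4 of 9 glycolysis genes were higher (Slc16a3 at 1.49, Slc2a1 at 1.32, Pfkp at 1.2 and Slc2a3 at 1.13) and 0 of 7 HIF response genes. Adm (-2.65) and Ndrg1 (-1.13) were lower on that scale. The backgrounds relative to the median were 10.7% higher and 12.8% lower. Counted down to the background level, 0 glycolysis genes were higher, against 3.7% of all genes, and Ndrg1 was the 1 HIF response gene lower, against 10.2%. Neutrophil markers moved with both contrasts, with 14 of 14 tested higher in Ly6C-hi of WT and 11 of 11 under the KO label, at median differences of 3.30 and 1.92. Inflammatory monocyte markers were higher in 4 of 8 and 8 of 9. The part of either cell type in the differences of glycolysis and HIF response genes was not tested. Adm and Ndrg1 were highest in labelled KO Ly6C-low and next highest in WT Ly6C-low, as was the mean of the sinusoidal endothelial markers, of which 15 of 15 tested in WT and 17 of 17 under the KO label were lower in Ly6C-hi. The part of endothelial RNA in these 2 genes was not tested.

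In Ly6C-hi cells, 11 of the 18 genes with a value were called lower under the KO label than in WT and 0 higher. They were 6 of 11 glycolysis genes and 5 of 7 HIF response genes. Of all 4410 genes 20.6% were called lower and 2.34% higher. Among genes above background in both arrays, Slc2a3 (-2.53), Vegfa (-2.40), Hilpda (-2.26), Slc2a1 (-1.53) and Pfkp (-1.06) were called, at 2.09-fold to 5.77-fold. The labelled KO reading was under background for Slc16a3 (at least 4.51-fold lower), Ero1a (at least 4.15-fold) and Egln3 (at least 3.64-fold), whose measured differences were -2.20, -2.21 and -2.90. It was under background too for P4ha1 (-1.67), Hk3 (-1.45) and Pfkfb3 (-1.27), which were less than 2-fold lower when counted down to that level. On that count 4 of 11 glycolysis genes and 4 of 7 HIF response genes were lower, against 11.5% of all genes. Of the arrays compared here, Egln3, Ero1a, P4ha1, Hk3 and Pfkfb3 reached the floor in WT Ly6C-hi alone. The floor itself thus admitted them through the higher array, and their calls are no support for a difference. Pgam1 (-0.95), Tpi1 (-0.87), Hif1a (-0.69), Pgk1 (-0.68) and Pkm (-0.47) were under 2-fold, and Gapdh differed by 0.11. Relative to the median gene, 2 of 11 glycolysis genes (Slc2a3 at -2.0 and Slc16a3 at -1.67) and 5 of 7 HIF response genes remained called lower, against 6.46% of all genes called lower and 6.05% higher. The 5 were Egln3 (-2.36), Vegfa (-1.87), Hilpda (-1.73), Ero1a (-1.68) and P4ha1 (-1.14). This comparison and that of the WT fractions share the WT Ly6C-hi array, so a high value on that array enters both. Among all genes at the floor 46.8% had their highest value on that array, against 10 of 11 glycolysis genes and 6 of 8 HIF response genes. Hk3, Pfkfb3 and Egln3 reached the floor on that array alone, which fixed their highest array. These counts are therefore no support for a difference. Of 14 neutrophil markers 12 were lower under the KO label in Ly6C-hi (median -1.86), while the 9 inflammatory monocyte markers had a median of 0.37. The part of neutrophil RNA in the genotype difference was not tested.

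**Figure D3:**
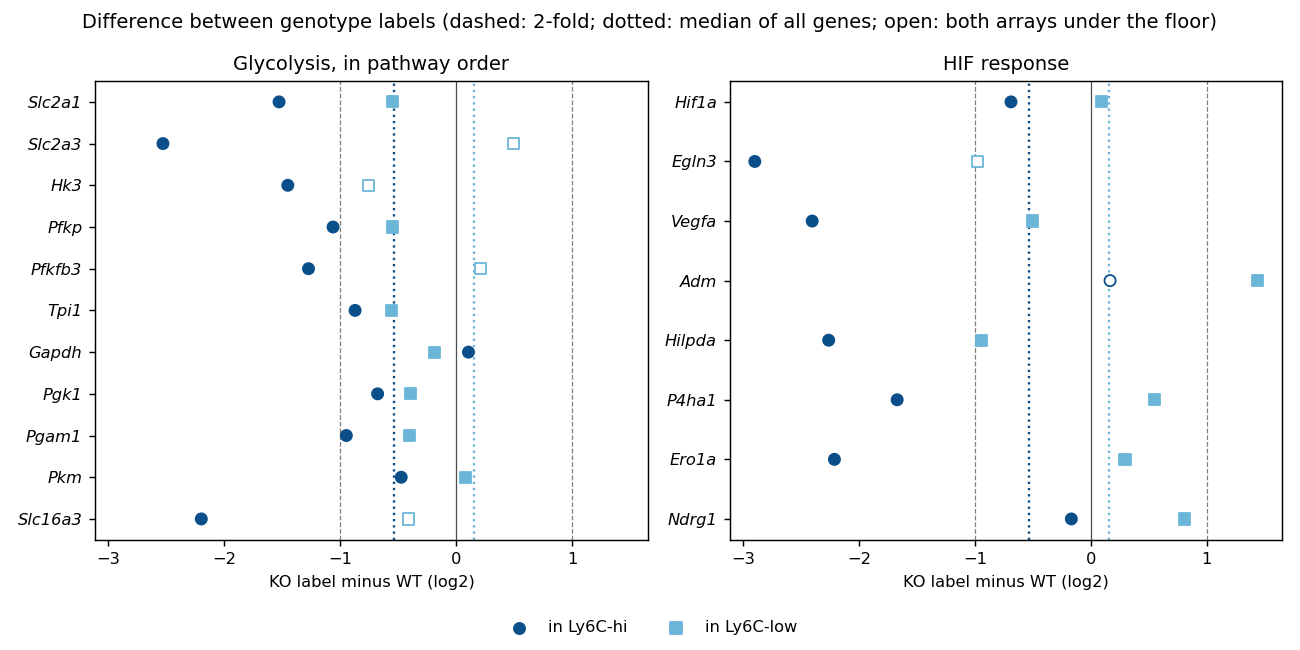
Log2 difference between the KO label and WT in Ly6C-hi (circles) and in Ly6C-low (squares) for each gene; dotted lines mark the median of all genes (-0.53 and 0.15) and open points had both arrays under the floor. Egln3, Slc2a3, Vegfa, Hilpda, Ero1a and Slc16a3 lie between -2.90 and -2.20 in Ly6C-hi, whereas in Ly6C-low 1 gene with a value, Adm at 1.43, passed 2-fold.

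In Ly6C-low cells the genotype labels differed little in these genes. Of 14 genes with a value, 1 (Adm) was called higher under the KO label and 0 lower, against 6.89% of all 4444 genes called higher and 0.81% lower. Adm reached the floor in the labelled KO array of this pair alone, so its call is no support for a difference. Adm read 6.50 against 5.06, a measured difference of 1.43 that was at least 1.43-fold down to the background level. On that count 0 of the genes were higher, against 3.96% of all genes. Ndrg1 (0.81) and P4ha1 (0.55) were the next highest. Hilpda had the lowest value, -0.94, and passed 2-fold when taken relative to the median gene (-1.09). The relative backgrounds were 5.13% higher and 1.69% lower. All 7 glycolysis genes with a value lay between -0.56 and 0.08. Sinusoidal endothelial markers were higher under the KO label in this fraction in 12 of 17, with a median of 1.47, and their part in the Adm difference was not tested.

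The Ly6C-hi minus Ly6C-low value was lower under the KO label than in WT for 18 of the 19 genes as deposited, Gapdh being the exception (0.29), and for 4386 of all 5306 genes. Relative to the median gene it was lower for 13 of the 19, the other 6 being Gapdh (0.95), Pgk1 (0.38), Tpi1 (0.35), Pfkp (0.16), Pgam1 (0.12) and Pkm (0.11). For Adm and Ndrg1, which were higher in Ly6C-low, a lower value means a wider gap. This difference of differences was at least 2-fold lower for 3 of 11 glycolysis genes (Slc2a3 -3.02, Slc16a3 -1.79 and Pfkfb3 -1.49) and 6 of 8 HIF response genes (Ero1a -2.51, P4ha1 -2.22, Egln3 -1.92, Vegfa -1.90, Hilpda -1.32 and Adm -1.27). It was at least 2-fold lower for 32.0% of all 5306 genes and that much higher for 3.09%, and its median over all genes was -0.67. Relative to that median 2 glycolysis genes (Slc2a3 -2.36, Slc16a3 -1.12) and 4 HIF response genes (Ero1a -1.84, P4ha1 -1.55, Egln3 -1.25, Vegfa -1.23) were lower, against 8.74% of all genes lower and 9.25% higher. With 1 array per group this quantity has no test, and readings under background enter it for Slc2a3, Slc16a3, Pfkfb3, Ero1a, P4ha1, Egln3 and Adm. Pfkfb3 and Egln3 reached the floor in WT Ly6C-hi alone and Adm in labelled KO Ly6C-low alone. P4ha1 and Ero1a reached it in those 2 arrays alone. A high value on either of these arrays lowers the quantity. The floor thus admitted these genes in the direction counted, and the counts are no support for a difference of the lists.

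**Figure D4:**
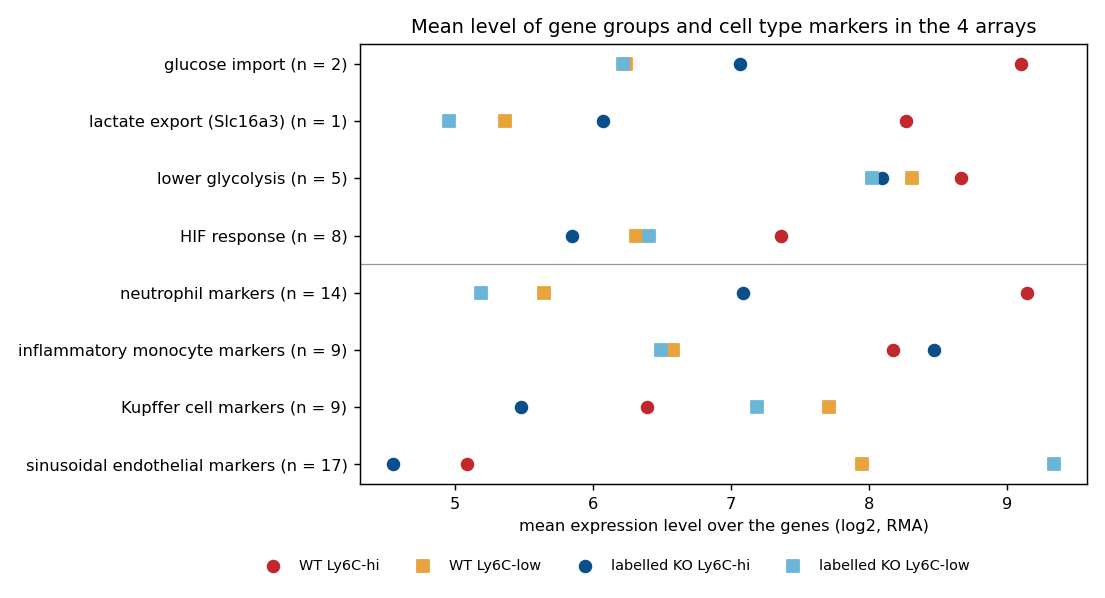
Mean level (log2, RMA) in each array of 4 groups of glycolysis and HIF response genes (above the line) and 4 lists of cell type markers (below it), with the number of genes averaged. Neutrophil markers average 9.14 in WT Ly6C-hi and 7.09 in labelled KO Ly6C-hi, inflammatory monocyte markers 8.17 and 8.47, and lower glycolysis genes 8.66 and 8.09.

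The only test the design allows treats the 4 arrays as an additive model of fraction and genotype, fitted with limma over all 5306 genes, which leaves 1 residual degree of freedom and takes the difference of differences as noise. Its p-values cover no spread beyond that among these 4 arrays, which may be technical. The average of both Ly6C contrasts was higher in Ly6C-hi for 3 of the 19 genes and lower for 0, against 2.6% of all genes called higher and 4.17% lower. The genes were Slc2a3 (2.27, SE 0.52, adjusted p = 0.000533 by limma), Slc16a3 (2.01, SE 0.54, adjusted p = 0.00547 by limma) and Slc2a1 (1.44, SE 0.47, adjusted p = 0.0384 by limma), all higher in 2 of 2 contrasts. Slc2a3 and Slc16a3 reached the floor in the Ly6C-hi arrays alone, so they entered this test through the fraction in which they were high and their p-values are no support. Slc2a1 was at the floor in all 4 arrays. Egln3, at 1.88 (SE 0.68), missed the threshold with an adjusted p of 0.0738 by limma. It reached the floor in WT Ly6C-hi alone, so it entered the fits for fraction and for genotype through that 1 high array. The SE came from the trend over all genes and not from the gene itself, and for Slc2a3 the 2 contrasts, 3.78 and 0.76, were far apart. With no floor, 0 genes of the list passed, and the adjusted p by limma was 0.34 for Slc2a3, 0.227 for Slc16a3 and 0.38 for Slc2a1. With a floor of 7, Slc2a1 alone passed. Averaging the probe sets of a gene took Slc2a1 to 0.94 (adjusted p = 0.547 by limma). For the average genotype effect limma called 0 of the 19 genes, with 5 at an unadjusted p under 0.05, against 0.302% of all genes called lower and 0.0188% higher. The largest of these averages were Egln3 at -1.94 (SE 0.68, adjusted p = 0.483 by limma) and Hilpda at -1.60 (SE 0.51, adjusted p = 0.259 by limma).

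Other genes of glucose metabolism and of the HIF pathway were taken from lists of function. Among 22 measured isoforms and alternative transporters of glycolysis, 2 reached the floor. Slc2a6, a lysosomal glucose transporter of macrophages, read 7.95 in the Ly6C-hi and 4.53 in the Ly6C-low cells of WT livers, with 5.55 and 4.80 for the KO label. It was at the floor in WT Ly6C-hi alone, and the readings of the other arrays were under background. With no floor its average fraction difference of 2.09 did not pass (SE 0.61, adjusted p = 0.333 by limma). In the pentose phosphate pathway, which makes NADPH, Pgd, Taldo1 and Rpe were at the floor, and Pgd was called at 1.02 between WT fractions, which was 0.72 and not called relative to the median. Under the KO label Pgd (0.87) and Taldo1 (0.74) were not called as deposited and were called relative to the median (1.24 and 1.11). Of 4 pyruvate oxidation genes at the floor, Pdk4, a kinase that switches off pyruvate dehydrogenase, read 3.21, 5.01, 3.95 and 6.54 in the order given for Slc2a6. It was called lower in Ly6C-hi under the KO label (-2.58) and higher under the KO label in Ly6C-low (1.53), in both cases with the dimmer reading under background. The mitochondrial pyruvate carrier gene Mpc1 was lower under the KO label in Ly6C-hi (-1.05), as were 20.6% of all genes, and was not called relative to the median (-0.52).

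The HIF machinery beyond the list held 8 genes at the floor. Epas1 encodes the HIF-2 alpha subunit, which is abundant in endothelium. It read 5.16 in the Ly6C-hi and 7.69 in the Ly6C-low cells of WT livers, with 4.85 and 9.22 for the KO label. It was at the floor in the Ly6C-low arrays alone. Both Ly6C-hi readings were under background (5.34 in WT and 6.09 for the KO label), so the sizes of its fraction differences are uncertain. With no floor its average fraction difference was -3.45 (SE 0.52, adjusted p = 0.049 by limma). That of Hif1a was 0.61 in either fit. It did not pass with the floor of 6 (SE 0.48, adjusted p = 0.697 by limma) or with no floor (SE 0.43). The level of Epas1 followed the order of the sinusoidal endothelial markers over the arrays, and their part in it was not tested. Between WT fractions 3 of the 8 genes were called higher in Ly6C-hi, the coactivator competitor Cited2 (1.37), the coactivator Ep300 (1.2) and the ubiquitin ligase gene Siah1a (1.17), and 1, Epas1 (-2.53), lower, against 20.3% and 6.57% of all genes. After subtracting the median Cited2 (1.07) stayed called higher, and Ep300 (0.90) and Siah1a (0.87) did not. Under the KO label 3 of 8 were lower in Ly6C-hi, against 20.7% of all genes, namely Siah1a (-1.24), Eloc (-1.10), a subunit of the complex that degrades HIF alpha, and Epas1 (-4.36). Cited2 was the 1 gene called higher (1.10), against 4.47% of all genes. On the relative scale Epas1 (-3.99) and Cited2 stayed called, and Siah1a (-0.87) and Eloc (-0.73) did not. Between labels in Ly6C-hi, 2 of 7 were lower under the KO label, Eloc (-1.69) and Siah1a, against 20.6% of all genes. Both stayed called relative to the median, against 6.46%. The labelled KO reading of Eloc (5.88) was under background. In Ly6C-low, 1 of 8, Epas1 (1.52), was higher under the KO label, against 6.89% of all genes.

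Of 31 further HIF targets measured, 12 were at the floor. Between WT fractions 3 of 12 were higher in Ly6C-hi, close to the 20.3% of all genes, and 0 lower, with a median of 0.74. The relative values gave 3 higher and 1, the syndecan gene Sdc4 (-1.14), was lower. They were Plaur, the urokinase receptor (2.65), the chemokine receptor Cxcr4 (1.51) and the circadian repressor Bhlhe40 (1.34). Plaur and Cxcr4 passed the additive fit for fraction, at 2.08 (SE 0.41, adjusted p = 2.4e-05 by limma) and 1.16 (SE 0.37, adjusted p = 0.0349 by limma). With no floor neither passed (adjusted p = 0.132 and 0.459 by limma). Under the KO label 2 of 10 were higher in Ly6C-hi (Plaur 1.5 and S100a4 1.19) and 2 lower (Sdc4 -1.49 and Pgm2 -1.21), against 4.47% and 20.7% of all genes, and on the relative scale 4 were higher and 1 (Sdc4) lower. In Ly6C-hi, 4 of 11 were lower under the KO label, namely Plaur (-1.63), the mitochondrial gene Fam162a (-1.5), Cxcr4 (-1.40) and the phosphoglucomutase gene Pgm2 (-1.16), with a median of -0.75 against -0.53 for all genes, of which 20.6% were called lower. With the median subtracted Plaur (-1.10) stayed called lower, Fam162a (-0.96), Cxcr4 (-0.86) and Pgm2 (-0.63) did not, and S100a4 was higher (1.18). In Ly6C-low, 0 of 10 were called either way.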

How the data were processed

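RNA of sorted liver macrophages was isolated with TRIzol and 5 ng was labelled with the WT Pico kit, per the labels; such small inputs need strong amplification. The deposited values are on the log2 scale, summarised per gene by the authors with RMA in Expression Console, per the labels. The sources used here give no versions and no annotation build.

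The platform annotation gave 1 symbol for 23521 of the 41345 probe sets, which were used, more than 1 for 1814 and no symbol for 16010. Symbols were updated through Entrez IDs in RefSeq GRCm38.p6 for 23328 of them. A gene was called when 2 arrays differed at least 2-fold and the brighter one reached a log2 level of 6. The additive model was fitted with limma 3.58.1 in R 4.3.3 (eBayes with a trend on level, Benjamini-Hochberg over all genes, threshold 0.05) and tested on simulated data. Prior degrees of freedom were infinite in the main fit, with no trend, with a floor of 7 and with the mean of probe sets. They were 7.07 with no floor, 6.74 with centred, 23.20 with quantile normalised and 10.10 with lowess-corrected arrays. Alternatives were centred, quantile normalised or lowess-corrected arrays, a floor of 7 or none, the mean of probe sets, no trend, and a 1.5-fold threshold. Counting differences only down to a background level, set per array from chemosensory receptor genes, was added after seeing the data. Python 3.11.15, pandas 2.3.3, numpy 2.4.6, statsmodels 0.14.6 and matplotlib 3.10.9 were used. Promoter matches were counted over 250 bases before each RefSeq start.

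The genes and lists were chosen with earlier results of these data known. All genes of the list at the floor are named; of other lists and of marker lists, up to 4 genes per comparison with the largest difference of at least 2-fold are named, and further genes were chosen after their values were seen.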

Additional observations from a re-analysis of the deposited data

Results flagged for a closer look

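P4ha1 was the 1 gene of the list whose fraction difference was at least 1.5-fold in opposite directions under the 2 labels: 0.93 in WT and -1.28 under the KO label. Each value rests on 1 array per fraction, and the difference between the labels was not tested. Relative to the median gene the values were 0.63 and -0.91. The dimmer array was under its background level in both comparisons, and under the KO label the brighter reading (6.02) was also under the background level of the other array (6.09).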

How the results depend on the processing

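No paired analysis was possible because each group has 1 array and the labels number no replicates; the additive fit already sets the fractions against each other within each label. No array could be left out of a comparison. No called difference of a single gene changed sign under any alternative run. Of Ly6C-hi against Ly6C-low under the KO label, the glycolysis genes called higher were 4 with centred, quantile normalised or lowess-corrected arrays and at 1.5-fold, and 0 with a floor of 7, against 1; the HIF response genes called lower were 1 with a floor of 7, against 3. In WT, 1 HIF response gene (Adm) was lower with no floor, against 0. Between labels in Ly6C-hi, 3 glycolysis genes were lower with centred or quantile normalised arrays, against 6; centring used the median of all 5306 genes per array. In Ly6C-low, HIF response genes higher under the KO label were 0 with lowess or a floor of 7 and 2 at 1.5-fold, against 1, and those lower were 1 with centring, quantile normalisation, lowess or 1.5-fold, against 0. At 1.5-fold, 5 glycolysis genes had a lower difference of differences, against 3. In the additive fit for fraction, genes called higher were 5 with quantile normalisation or lowess, 1 with a floor of 7 and 0 with no floor, against 3, and 1 (Adm) was lower with no trend or centred arrays, against 0. Over all alternatives the adjusted p by limma ran from 0.000306 to 0.34 for Slc2a3, from 0.0004 to 0.25 for Slc16a3 and from 0.00555 to 0.547 for Slc2a1. Counted down to the background level, an alternative chosen after seeing the data, genes under the KO label higher in Ly6C-hi were 0 for glycolysis, against 1, and those lower 1 for HIF response, against 3. Between labels in Ly6C-low, 0 HIF response genes were higher, against 1. Causes were not tested.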

Other observations

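Several genes had a second probe set with 1 symbol that stayed dim. For Ero1a it read 4.93 in WT Ly6C-hi and 4.77 in WT Ly6C-low, a difference of 0.16 where the brighter probe set differed by 2.37. For Slc2a1 the second probe set read 3.77 and 3.58, a difference of 0.19 against 1.92, and for Hif1a 3.42 and 3.08, a difference of 0.34 against 1.0. The 3 Gapdh probe sets differed between WT fractions by -0.03, -0.08 and -0.20, and the 2 of Pgam1 by 0.43 and 0.49.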
